A study of Rattus norvegicus with 6 samples.

Results

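The insulin-like growth factor (IGF) system was followed in rat brain through 9 genes: the ligands Igf1 and Igf2, the receptor Igf1r, and the binding proteins Igfbp2, Igfbp3, Igfbp4, Igfbp5, Igfbp6 and Igfbp7. They were chosen by symbol, and all 9 were found among the 25399 genes listed in the deposited files, each under 1 identifier (Igf1 is ENSRNOG00000004517, Igf2 ENSRNOG00000020369, Igf1r ENSRNOG00000014187, Igfbp2 ENSRNOG00000016957, Igfbp3 ENSRNOG00000061910, Igfbp4 ENSRNOG00000010635, Igfbp5 ENSRNOG00000017206, Igfbp6 ENSRNOG00000010977 and Igfbp7 ENSRNOG00000002050). The study took 3 single-cell libraries from Sprague Dawley rats with pontine infarction, a stroke of the brain stem, and 3 from sham rats. The labels give the tissue as brain, the age of all 6 samples as postnatal day 21 and no other treatment; no source used here names the time after infarction or the way cells were dissociated. They say that 3 rats received the infarction but not that each library is 1 rat, so p-values measure the spread between libraries, which may be technical in part.

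IGF1 and IGF2 are small peptides related to insulin that act through the receptor tyrosine kinase encoded by Igf1r and, inside the cell, the PI3K, AKT and mTOR kinases. In fluid they are held by the IGF-binding proteins, which lengthen their life and set how much ligand reaches the receptor, while IGFBP7 binds IGFs weakly and is found mainly in the wall of blood vessels. In the brain, Igf2 and Igfbp2 are known products of the choroid plexus, the epithelium that makes cerebrospinal fluid, and Igf1 is made by microglia, the resident macrophages of brain tissue, as well as by some neurons.

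The promoters of the 2 pairs of genes that shared a source in the sham libraries are shown, since members of a pair appeared in the same cells: Igf2 and Igfbp2 in choroid plexus cells, Igfbp4 and Igfbp7 in the smooth muscle of vessels. Each line is the 100 bases directly before the annotated start, 5′ to 3′ on the strand of the gene, from RefSeq on build GRCr8, in lower case. Capitals mark TATAAA, the core of a TATA box, or GGGCGG, the GC box bound by Sp1-type factors, each searched on both strands, and the 2 motifs share no bases where they were found.
Igf2 (the start at chr1:207250476-207250575, minus strand): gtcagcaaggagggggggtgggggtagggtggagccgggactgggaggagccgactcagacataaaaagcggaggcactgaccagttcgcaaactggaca
Igfbp2 (chr9:81864711-81864810, plus strand): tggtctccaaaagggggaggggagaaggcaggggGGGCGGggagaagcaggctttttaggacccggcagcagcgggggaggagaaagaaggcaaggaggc
Igfbp4 (chr10:84491371-84491470, plus strand): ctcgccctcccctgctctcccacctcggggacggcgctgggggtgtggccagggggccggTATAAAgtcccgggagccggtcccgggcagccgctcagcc
Igfbp7 (chr14:31091636-31091735, plus strand): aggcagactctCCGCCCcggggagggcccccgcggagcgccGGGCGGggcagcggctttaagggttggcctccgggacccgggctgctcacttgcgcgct
Within 250 bases before the start, Igfbp7 held 4 GC boxes, Igfbp2 held 1, the Igf2 start shown held 1 outside the stretch printed, and Igfbp4 held none but had the TATAAA match 40 bases before its start. Of the 33469 rat promoters in the table, 12.9% held TATAAA and 30.5% held GGGCGG in the same window, so a single match to either is common.

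The 6 libraries held 44011 barcodes and between 56416475 and 69924334 unique molecular identifiers (UMIs, 1 per captured transcript), and 37853 cells were kept. Any pair of libraries shared 8 to 21 barcodes, at most 0.313% of the smaller library. The cells fell into 29 clusters, 25 of which took the name of a cell type from its marker genes; the names are those of the nearest type ("X-like"), and the IGF genes took no part in the clustering. Some classes were filled in both groups: 3688 infarction and 3312 sham cells were microglia-like, 493 infarction and 298 sham cells oligodendrocyte-like, 276 infarction and 337 sham cells T or NK-like, 151 infarction and 349 sham cells endothelial-like and 95 infarction and 91 sham cells ependymal-like. Others were lopsided: 1 infarction and 7223 sham cells were smooth muscle-like, 14 infarction and 4243 sham cells pericyte-like and 4 infarction and 586 sham cells choroid plexus-like, while 4471 infarction and 69 sham cells were neutrophil-like and 5833 infarction and 461 sham cells macrophage-like. Choroid plexus-like cells were also uneven among sham libraries, with 185 in sham 1, 384 in sham 2 and 17 in sham 3. The median mitochondrial share per cell was 5.59% to 7.81% in infarction and 9.66% to 10.2% in sham libraries, and its part in the differences below was tested only by a stricter limit on it.

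The level of a gene in a class is given below as counts per 1000000 (CPM), its UMIs scaled to that total of UMIs of the class in one library. It was compared between groups only in the 5 classes with at least 20 cells in every library (microglia-, macrophage-, oligodendrocyte-, T or NK- and endothelial-like), by edgeR's quasi-likelihood test on summed counts with Benjamini-Hochberg adjustment over all genes tested. Each log2 fold change is infarction over sham, with its standard error (SE).

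**Figure D1:**
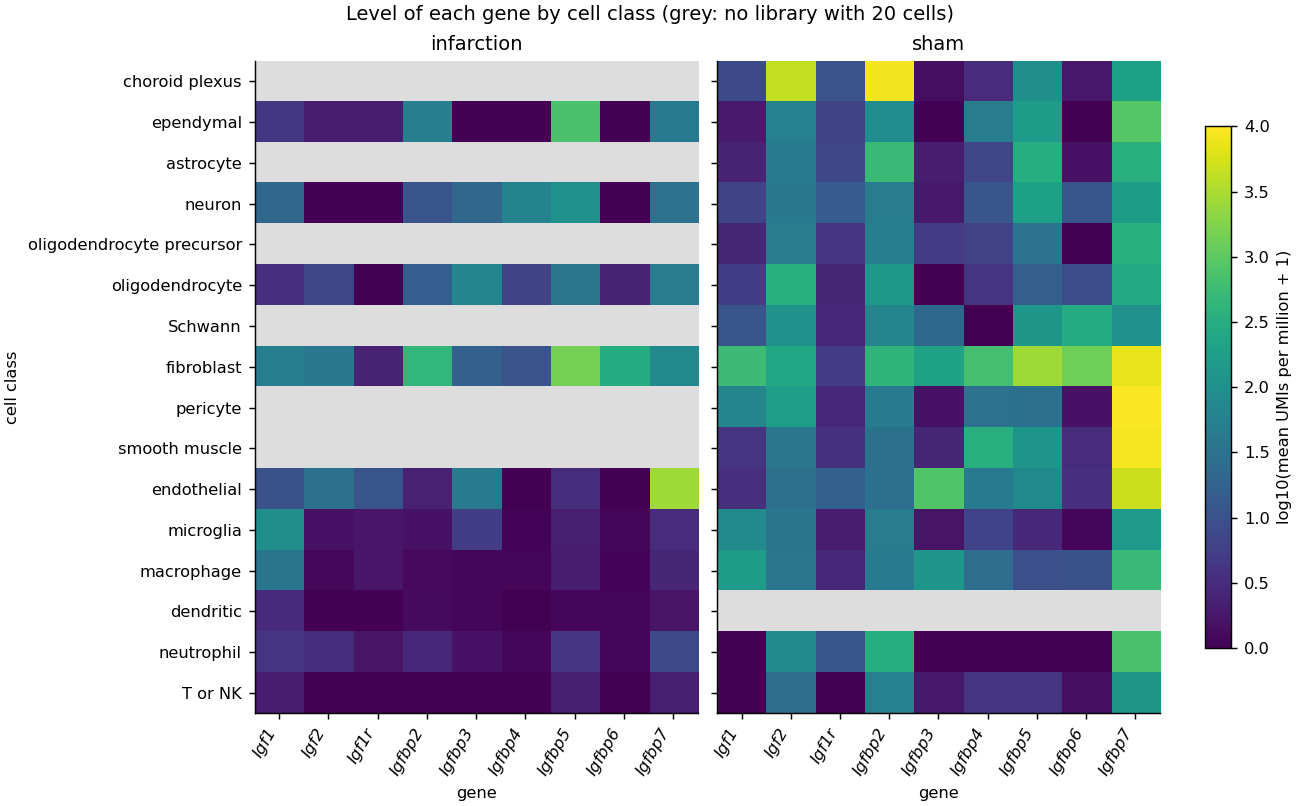
Mean level of each of the 9 genes (columns) in each named class (rows), as log10(CPM + 1), over the infarction libraries (left) and sham libraries (right) with at least 20 cells of the class. The brightest cells are Igfbp7 in sham pericytes and smooth muscle and Igfbp2 in sham choroid plexus cells, classes that are grey (too few cells) in infarction. Igfbp7 in sham fibroblasts and endothelial cells, classes not grey in infarction, comes next, ahead of Igf2 in sham choroid plexus cells (4256 CPM).

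Over all kept cells of a library, each of the 9 genes passed the filter on low counts. The test called 8 lower in infarction and 1, Igf1, higher, against 38.1% of all 14613 tested genes called lower and 33.2% called higher. The median log2 fold change of the 9 genes was -3.49, and that of all tested genes was -0.13. For the 8 genes called lower, every infarction library lay under every sham library, as the plot of all-cell levels shows. The share of all tested genes that also did not overlap was not counted, so this adds nothing to the calls. The class with the largest sham share of each had at most 45 infarction cells, except for Igfbp3, whose largest sham share (50.8%) lay in endothelial-like cells. Fewer cells of a class and less RNA per cell cannot be told apart in these sums. With plain library totals in place of TMM factors, 3243 genes were called higher and 7542 lower, against 4850 and 5569 with TMM.

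**Figure D2:**
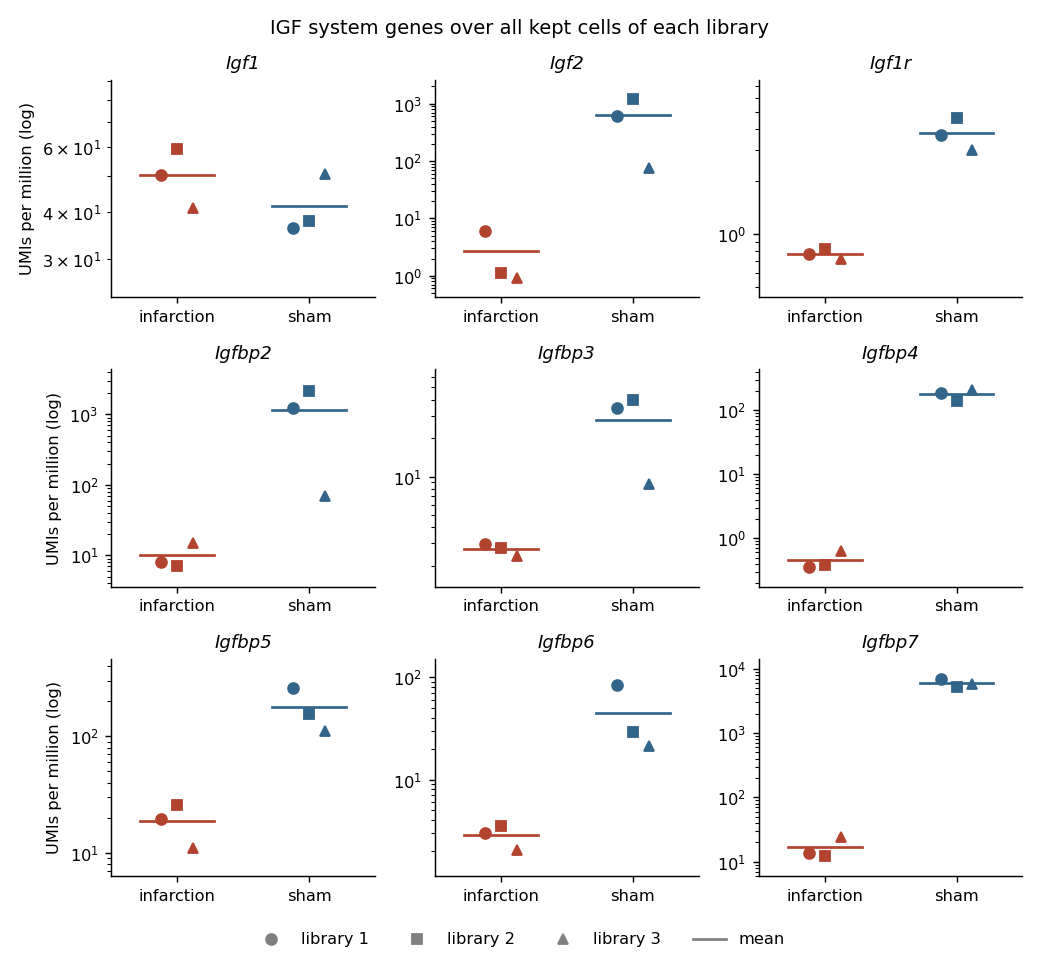
CPM over all kept cells (log axis, one panel per gene) in the 3 infarction and 3 sham libraries, with the mean as a line. Igfbp7 lies between 12.1 and 24.2 in infarction and between 5209 and 6877 in sham libraries, whereas the Igf1 values of the groups overlap.

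**Figure D3:**
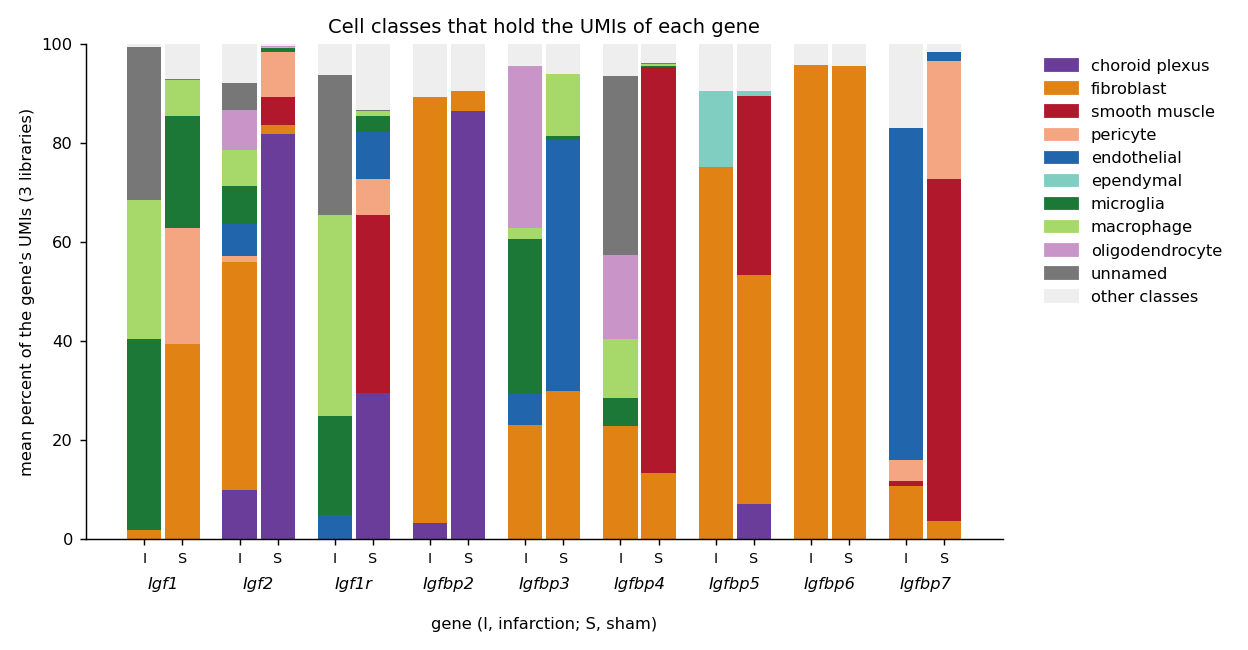
Mean share of each gene's UMIs that each class held (percent, 3 libraries per group, infarction left of sham for every gene); all other classes are pale grey. Fibroblast cells held 95.7% of Igfbp6 UMIs in infarction and 95.5% in sham libraries, while Igfbp7 lay mostly in endothelial cells in infarction and in smooth muscle in sham libraries.

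Igf1 was the one member with similar totals in both groups. Infarction libraries 1 to 3 had 50.4, 59.1 and 41.1 CPM of Igf1 over all cells, and sham libraries 1 to 3 had 36.3, 37.9 and 50.8. Infarction 3 lay under sham 3, so the groups overlap. The fit, which scales libraries by TMM factors, called it higher (log2 fold change 0.74 ± 0.19, adjusted p = 0.0134); with plain library totals it was 0.27 (adjusted p = 0.232), a scaling that moved the median gene by -0.47. When cells of the choroid plexus, pericyte and smooth muscle classes were left out of every library, Igf1 was lower in infarction, at -0.46 (adjusted p = 0.0434). The direction for whole libraries therefore depended on which cells were counted.

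The cells behind the Igf1 total differed between the groups. In infarction libraries, microglia-like cells held 38.6% ± 6.92 of Igf1 UMIs (SD, n = 3), unnamed clusters 30.8% ± 8.12, macrophage-like cells 28.1% ± 2.25 and fibroblast-like cells 1.81% ± 1.45. In sham libraries, microglia-like cells held 22.6% ± 19.1, macrophage-like cells 7.33% ± 1.66, fibroblast-like cells 39.4% ± 13.6, pericyte-like cells 23.4% ± 5.03 and unnamed clusters 0.259% ± 0.274. The fibroblast and macrophage shares did not overlap between groups, with an exact two-sided permutation p = 0.1 for each, the smallest that 3 against 3 libraries allow; adjusted over the 46 shares compared, the smallest p was 0.135.

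Per cell class, sham fibroblast-like cells had the most Igf1, at 559 ± 131 CPM (SD, n = 3), and did not overlap the next class. Sham macrophage-like cells followed with 160 ± 15.2, sham microglia-like cells with 82.4 ± 27.9 and sham pericyte-like cells with 65.9 ± 15.5; the last 2 overlapped. Pericytes were split: the cluster led by Atp13a5, Abcc9 and Kcnj8, genes of capillary pericytes, had 155 to 215 CPM of Igf1, and the cluster led by Ndufa4l2 and Rgs5 had 12.7 to 27.8. The 3 smooth muscle clusters stayed between 0.8 and 9.0. The range of the Atp13a5 cluster thus lay above those of the other pericyte cluster and of smooth muscle.

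In microglia-like cells, infarction libraries 1 to 3 had 98.9, 92.7 and 101 CPM of Igf1, and sham libraries 1 to 3 had 73.7, 59.9 and 114. The class was made of different clusters in the groups. Of the 3688 infarction cells, 1921 came from a cluster led by Ccl4 and 1605 from one led by Cox6a2. Both clusters had cell-cycle genes among their 10 leading genes. Of the 3312 sham cells, 2409 and 767 came from clusters whose first leading genes were Tmem119 and Cst3. Sham 3 lay above every infarction library, and the difference was not called (0.21 ± 0.23, adjusted p = 0.449). Without sham 3 it was called (0.55, adjusted p = 0.00248), and against sham 3 alone it turned to -0.21 (adjusted p = 0.181), so 1 sham library decided this call. An Igf1 UMI was found in 30.1% to 52.0% of infarction and 22.6% to 37.5% of sham microglia-like cells, against 0% to 1.68% of infarction and 0% of sham T or NK-like cells, which are not known as an Igf1 source. The median depth was 4547.5 to 14579 UMIs in infarction and 4979 to 5199 in sham microglia-like cells, and 4988 to 5119.5 in infarction and 4216 to 5749 in sham T or NK-like cells. With each microglia-like cell thinned to 1000 UMIs, which left out 354 infarction and 444 sham cells, the shares were 7.53% to 9.85% in infarction and 5.86% to 11.1% in sham libraries.

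Among infarction phagocytes Igf1 varied by cluster. The microglia cluster led by Ccl4 and Cd83 had 98.2 to 104 CPM and the microglia cluster led by Cox6a2 had 83.8 to 96.3. The unnamed cluster led by Mmp12 and the MHC class II gene RT1-Da had 61.9 to 91.3. The macrophage cluster led by Apoc1, Spp1 and Gpnmb had 31.9 to 60.7. The macrophage cluster led by Fcnb, Vcan and Arg1 had 4.8 to 6.0, Fcnb and Vcan being on the list of monocyte markers. The Ccl4 cluster was the highest and the Fcnb cluster the lowest of these 5 in each infarction library, while the Cox6a2 and Mmp12 clusters overlapped. As a class, macrophage-like cells had 33.5, 43.7 and 26.6 in infarction and 149, 153 and 177 in sham libraries, with no overlap (-1.67 ± 0.18, adjusted p = 5e-05). The class was made of different clusters in the groups: 5813 of the 5833 infarction cells came from the Apoc1 and Fcnb clusters, and 434 of the 461 sham cells from a cluster led by Lyve1, Mrc1 and Cxcl13, genes of macrophages at the borders of the brain.

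A closer match came from clusters with Lyve1 among their 10 leading genes at a finer clustering (Leiden resolution 1.5), chosen after the data were seen, with 71, 66 and 54 infarction and 153, 163 and 123 sham cells. There Igf1 was 162, 82.9 and 159 CPM in infarction and 154, 166 and 171 in sham libraries, and was not called (-0.28 ± 0.20, adjusted p = 0.335). Infarction 2 was low, and the other 2 infarction libraries lay within the sham range. The infarction over sham change of Igf1 differed between the microglia- and macrophage-like classes (interaction 1.90 ± 0.27, adjusted p = 0.000901), with 2 of the 8 members tested called and both positive, against 17.3% of all 11472 genes tested.

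Igf2 and Igfbp2, a growth factor and the binding protein that carries it in cerebrospinal fluid, were choroid plexus genes in these libraries. Over all cells, Igf2 was 5.95, 1.13 and 0.911 CPM in infarction libraries 1 to 3 and 607, 1219 and 77.1 in sham libraries 1 to 3. Igfbp2 was 8.08, 7.15 and 14.8 in infarction and 1240, 2183 and 70.1 in sham libraries. Both had the order sham 2, sham 1, sham 3, that of the number of choroid plexus-like cells, and both were called lower in infarction (Igf2 -7.40 ± 1.44, adjusted p = 0.00433; Igfbp2 -6.41 ± 1.29, adjusted p = 0.00502). In choroid plexus-like cells Igf2 was 3870, 4643 and 6322 and Igfbp2 8518, 8603 and 6121 CPM in sham 1, 2 and 3. Of the 586 sham cells of this class, 580 held an Igf2 UMI and 585 an Igfbp2 UMI, and Igfbp2 stood among the 10 leading genes of their cluster.

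Choroid plexus-like cells held 81.8% ± 16.4 of Igf2 UMIs and 86.5% ± 16.8 of Igfbp2 UMIs in sham libraries. In infarction libraries they held 9.87% ± 10.6 and 3.30% ± 3.63, and most of the Igfbp2 left lay in the 45 fibroblast-like cells (86.1% ± 13.2). Infarction libraries 1 to 3 had 14, 21 and 10 such cells, in which Igfbp2 was 2025, 440 and 3386 CPM, against 571, 300 and 365 in sham libraries 1 to 3. The 10 cells with the most Igfbp2 gave 86.7% of the infarction and 76.8% of the sham fibroblast UMIs, so a few cells carry this level and it was not compared by a test.

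Sham classes other than the choroid plexus also showed Igf2 and Igfbp2 UMIs, which were set against those of Ttr, the transthyretin gene and most abundant choroid plexus transcript. In choroid plexus-like cells there were 14.9, 21.1 and 29.3 Igf2 UMIs per 1000 Ttr UMIs in sham 1, 2 and 3. In microglia-like cells of the same libraries there were 15.4, 14.7 and 25.5, close to those ratios in each library. In pericyte-like cells there were 103, 51.6 and 884, and in fibroblast-like cells 290, 103 and 1507, above the choroid plexus ratio in all 3 libraries. In other classes it varied by library: there were 18.9, 15.7 and 120 in macrophage-like, 21.0, 19.3 and 151 in endothelial-like and 31.4, 25.5 and 268 in smooth muscle-like cells, highest in sham 3 in each. For Igfbp2 the ratio was 32.8, 39.2 and 28.4 in choroid plexus-like cells, 18.0, 21.8 and 36.1 in microglia-like cells, lower than in the choroid plexus in sham 1 and 2, and 177, 113 and 1582 in astrocyte-like cells, in which Igfbp2 reached 282 to 731 CPM.

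**Figure D4:**
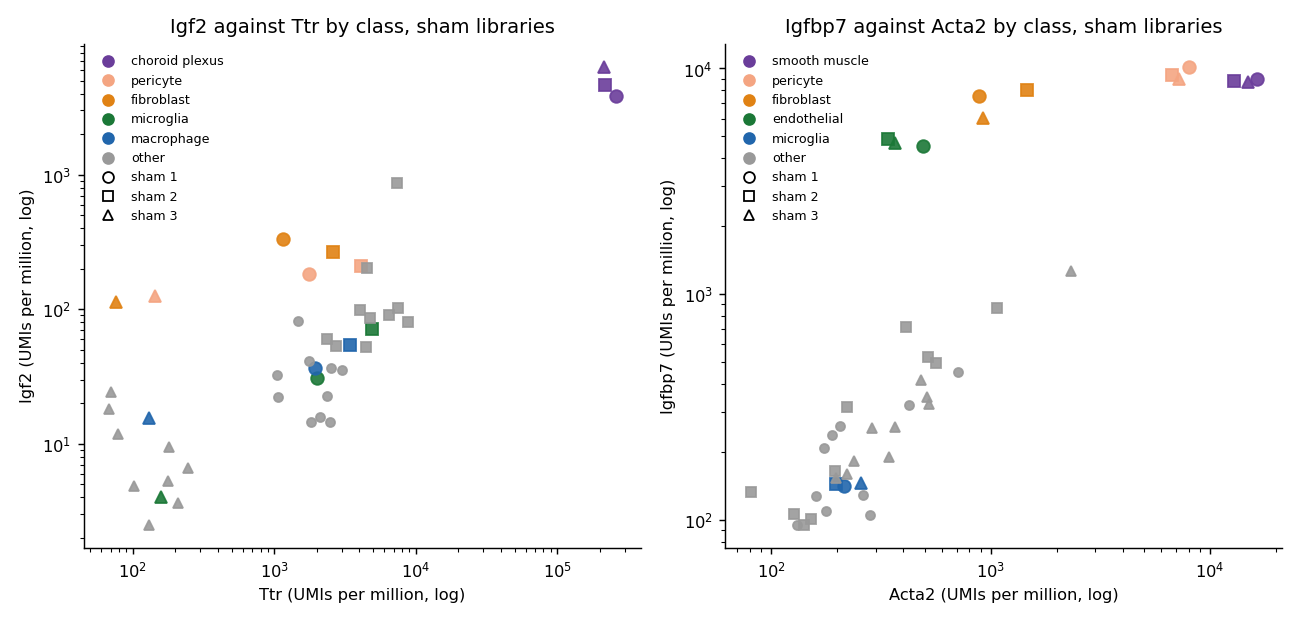
Level of Igf2 against Ttr (left) and of Igfbp7 against Acta2 (right) in each named class with at least 10 cells, sham libraries only, both axes logarithmic in CPM; the symbol gives the library. Microglia (15.4, 14.7 and 25.5 Igf2 UMIs per 1000 Ttr UMIs) lie near the choroid plexus ratio, while pericytes and fibroblasts lie above it on the left, and endothelial cells and fibroblasts lie far above the smooth muscle ratio on the right.

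The microglia-like fit tested 7 members and called 1 higher and 4 lower, against 32% and 30.9% of all 10531 genes tested (62.9% in either direction). The median log2 fold change of the 7 was -5.52, and that of all genes tested was -0.016. Those called lower (Igf2, Igfbp2, Igfbp4 and Igfbp7) had 18, 21, 4 and 80 infarction UMIs, against 533, 769, 105 and 2628 sham UMIs. They entered the fit through the sham libraries, so neither the count nor the median is support for a direction. Igf2 was 0.347, 0.304 and 0.977 CPM in infarction and 30.8, 71.6 and 4.06 in sham libraries (-6.12 ± 1.63, adjusted p = 0.0303). Igfbp2 was 0.347, 0.837 and 0.543 in infarction and 35.9, 107 and 5.74 in sham libraries (-6.42 ± 1.66, adjusted p = 0.028). The summed level of the 10 choroid plexus markers in the same cells was 3.96 to 6.09 in infarction and 175 to 5064 in sham libraries, in the same order of sham libraries. Between 4 and 5 of the 10 markers had a UMI in infarction and 9 of 10 in sham libraries, Otx2 being at 0 in all 6. The part of these markers' source in the 2 calls was not tested beyond the ratios above, and either call was lost when any 1 infarction library or sham 1 was left out (adjusted p = 0.0549 to 0.111).

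Igf1r, the receptor, was near the limit of detection. Over all cells it was 0.771, 0.820 and 0.719 CPM in infarction and 3.69, 4.61 and 3.00 in sham libraries, on 143 and 634 UMIs in all (-1.82 ± 0.24, adjusted p = 0.000739). Its highest sham classes were endothelial- (16.3 ± 6.3) and neuron-like cells (13.8 ± 8.6), which overlapped. Among infarction libraries, endothelial-like cells had 10.1 ± 6.7 on 7 UMIs. In macrophage-like cells, the one tested class in which it passed the filter, the difference was not called (-0.54 ± 0.67, adjusted p = 0.521). That test rested on 58 infarction and 5 sham UMIs.

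Igfbp3, the main IGF carrier of blood, was carried by small sets of cells that differed between classes. Over all cells it was 2.97, 2.78 and 2.37 CPM in infarction and 34.5, 40.1 and 8.75 in sham libraries (-2.90 ± 0.58, adjusted p = 0.00476). In endothelial-like cells it was 80.1, 28.8 and 20.8 in infarction and 1521, 894 and 2.97 in sham libraries, which span the infarction values, and the difference was not called (-4.12 ± 2.04, adjusted p = 0.343). Without sham 3 it was called lower (-4.68, adjusted p = 0.00921). Against sham 3 alone, which held 2 Igfbp3 UMIs in 55 endothelial-like cells, the change was 3.78. The endothelial fit tested 4 members and called 2 lower, Igfbp4 and Igfbp7, against 4.51% of 5855 genes tested called lower and 3.84% called higher (8.35% in either direction), with a median log2 fold change of -2.39 for the 4 and -0.0018 for all genes tested.

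In the 2 high sham libraries, nearly all endothelial Igfbp3 UMIs lay in cells with Plvap, a component of the diaphragms of leaky, fenestrated vessels that the choroid plexus has and the blood-brain barrier lacks. Plvap was detected in 18 of 79, 39 of 215 and 0 of 55 sham endothelial-like cells and in none of the 37, 43 and 71 infarction cells. Of 1369 Igfbp3 UMIs in sham 1, 1353 lay in those 18 cells, and of 1898 in sham 2, 1885 lay in those 39. Esm1, another gene of such vessels, was found in 70.2% of Igfbp3-positive and 3.97% of Igfbp3-negative sham endothelial-like cells, and Cldn5, the tight-junction gene of the barrier, in 25.5% and 92.4%. Without Plvap-positive cells, Igfbp3 was 80.1, 28.8 and 20.8 in infarction and 21.3, 7.42 and 2.97 in sham libraries (2.19, adjusted p = 0.0900), the opposite sign. Those levels rested on 20, 5 and 7 infarction and 16, 13 and 2 sham UMIs, with 14 of the infarction UMIs in 1 cell. Plvap, Esm1 and the other second genes of Igfbp3-positive cells were picked after the values were seen.

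**Figure D5:**
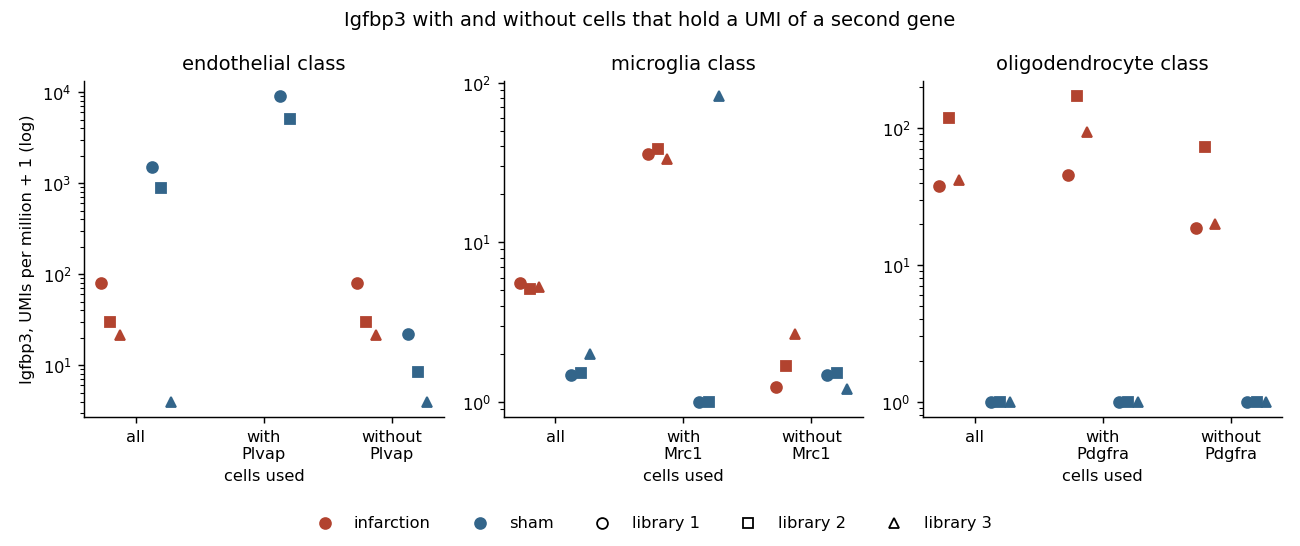
Igfbp3 level (CPM + 1, log axis) in endothelial, microglia and oligodendrocyte class cells, for all cells and for cells with and without a UMI of Plvap, Mrc1 or Pdgfra; each symbol is a library, infarction left of sham. In sham libraries 1 and 2 the Plvap-positive endothelial cells reach 8998 and 5063, while the cells without Plvap lie at 21.3 and 7.42.

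In microglia-like cells Igfbp3 was the 1 member called higher: 4.58, 4.11 and 4.23 CPM in infarction and 0.466, 0.504 and 0.990 in sham libraries (2.49 ± 0.34, adjusted p = 0.000101). The level rested on 78 of 3688 infarction cells. Mrc1, a mannose receptor of border macrophages, was found in 75.6% of these 78 cells and in 5.43% of the other infarction microglia-like cells, and Cd163, a scavenger receptor of the same macrophages, in 20.5% and 0.443%. The microglial gene Tmem119 was found in 28.2% and 53.1%. Without Mrc1-positive cells, Igfbp3 was 0.238, 0.672 and 1.66 in infarction and 0.469, 0.512 and 0.200 in sham libraries, which overlap, and it no longer passed the filter. The call was also lost without doublet removal (1.27, adjusted p = 0.136), and no member was called higher with at most 10% mitochondrial UMIs or at Leiden resolution 1.5, where Igfbp3 did not pass the filter. The class was made of different clusters in the groups, as given for Igf1.

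In macrophage-like cells Igfbp3 was 0.0810, 0.0887 and 0.202 CPM in infarction and 133, 111 and 131 in sham libraries (-9.28 ± 0.24, adjusted p = 5.73e-09), the class whose clusters differ between groups. The macrophage-like fit tested 8 members and called 6 lower and none higher, against 26.9% and 29.1% of 10529 genes tested (55.9% in either direction). Their median log2 fold change was -6.81, and that of all genes tested was -0.0036. Those called lower other than Igf1 had 9 to 137 UMIs in 5833 infarction cells and 86 to 1803 in 461 sham cells. They entered the fit largely through the sham libraries, so neither the count nor the median is support for a direction. In the same cells the 10 smooth muscle markers summed to 1.26 to 13.4 CPM in infarction and 2420 to 5805 in sham libraries, and the 10 choroid plexus markers to 2.23 to 5.32 in infarction and 140 to 3562 in sham libraries. Between 4 and 9 smooth muscle markers had a UMI in infarction and 10 in sham libraries, and 3 to 5 choroid plexus markers in infarction and 5 to 9 in sham libraries, Otx2 being at 0 in all 6. Their part in the calls of Igf2, Igfbp2, Igfbp4 and Igfbp7 was not tested. In the Lyve1-led clusters of the finer clustering, Igfbp3 was 62.7, 59.2 and 75.4 in infarction and 137, 120 and 125 in sham libraries, without overlap and with a smaller change (-0.95 ± 0.17, adjusted p = 0.00105). That comparison tested 6 members and called 4 lower, against 11.5% of 6395 genes tested. With plain library totals, 1651 genes of the macrophage-like class were called higher and 4748 lower, against 3061 and 2829 with TMM, a shift of -0.53 in the median gene.

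In oligodendrocyte-like cells Igfbp3 was 36.8, 118 and 40.8 CPM in infarction libraries and 0, 0 and 0 in sham libraries, on 163 and 0 UMIs. With a floor of 3 counts over the sham group, the infarction level was at least 48.3-fold higher (fitted adjusted p = 0.00597). The call was lost without sham 3 (adjusted p = 0.0556), which holds 239 of the 298 sham cells. Igfbp3 was found in 40 of the 493 infarction cells. The precursor marker Pdgfra was found in 62.5% of these 40 and 14.1% of the other infarction cells, the lineage factor Sox10 in 72.5% and 22.5%, and the neuropeptide genes Gal and Vgf in 82.5% and 11.9% and in 85.0% and 14.6%. The myelin genes Mbp and Mag were found in 27.5% and 61.8% and in 5.0% and 36.4%. The cells with Igfbp3 thus had precursor more than myelin genes, and sham cells of the class rarely had Pdgfra (2.35%). Without Pdgfra-positive cells, which are also the deeper cells, Igfbp3 was still 17.8, 72.0 and 19.0 in infarction and 0, 0 and 0 in sham libraries but did not pass the filter. The fit tested 4 members and called 1 higher and 1 lower, against 12.3% and 9.27% of 6955 genes tested (21.5% in either direction), with a median log2 fold change of -0.47 for the 4.

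Igfbp4, a binding protein that inhibits IGF action until the protease PAPP-A cuts it, was highest in sham fibroblast-like (646 ± 441 CPM) and smooth muscle-like cells (317 ± 69.1), which overlapped. Over all cells it was 0.361, 0.386 and 0.639 CPM in infarction and 187, 141 and 210 in sham libraries (-8.13 ± 0.29, adjusted p = 1.18e-05). Smooth muscle-like cells held 81.8% ± 12.1 of its sham UMIs, and 1 such cell was found in infarction. Within smooth muscle, the cluster led by Eln, the elastin gene of arteries, had 425 to 640 CPM, above the 118 to 230 of the other 2 clusters. In endothelial-like cells Igfbp4 was 0, 0 and 0 in infarction and 61.1, 30.6 and 34.2 in sham libraries, at least 9.80-fold lower by the floor of 3 counts over the infarction group (fitted adjusted p = 0.00209). Of its 143 UMIs in sham endothelial-like cells, 62.9% lay in 10 cells. Without Plvap-positive cells Igfbp4 was not among the members tested, so the call could not be checked there. The summed level of the 10 smooth muscle markers in endothelial-like cells was 112 to 1361 in infarction and 1835 to 2642 in sham libraries, with its part in the Igfbp4 difference not tested. In microglia-like cells Igfbp4 was 0, 0.304 and 0 in infarction and 5.13, 4.71 and 6.53 in sham libraries (-5.52 ± 0.63, adjusted p = 2.7e-05). That call rested on 4 infarction and 105 sham UMIs. Smooth muscle markers in the microglia-like cells summed to 4.37 to 5.97 CPM in infarction and 1059 to 1313 in sham libraries. Their part in this call was not tested.

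Igfbp5, which binds extracellular matrix, was led by fibroblast-like cells, at 2692 ± 1457 CPM in sham libraries, followed by sham astrocyte-like cells at 312 ± 42.4. Over all cells it was 19.5, 25.6 and 11.0 in infarction and 262, 156 and 112 in sham libraries (-2.77 ± 0.46, adjusted p = 0.00213). Fibroblast-like cells held 75.2% ± 16.5 of its infarction UMIs and 46.1% ± 25.1 of its sham UMIs. Ependymal-like cells, the ciliated lining of the ventricles, came next in infarction with 15.3% ± 10.7, against 0.884% ± 0.939 in sham libraries. In ependymal-like cells Igfbp5 was 191, 838 and 591 in infarction libraries with 15, 57 and 23 cells, and 1148, 121 and 206 in sham libraries with 13, 24 and 54 cells. Among libraries with at least 20 such cells, both infarction values lay above both sham values, while sham 1, with 13 cells, was the highest of all, and no test was made. In the macrophage-like class the Igfbp5 groups did not overlap (0.202, 1.20 and 1.71 in infarction and 2.17, 20.7 and 2.41 in sham libraries), and the difference was not called (-2.67 ± 1.01, adjusted p = 0.0595). It was called lower under 8 alternatives, among them DESeq2 (-2.56, adjusted p = 0.0233) and the replicate block (-2.47, adjusted p = 0.0121), whereas without sham 2 it was -0.54 (adjusted p = 0.761), so the call depends on the setting.

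Igfbp6, which prefers IGF2 as its ligand, kept to one class in both groups. Fibroblast-like cells held 95.7% ± 1.02 of its UMIs in infarction and 95.5% ± 2.87 in sham libraries, a difference of 0.216 percentage points (exact permutation p = 1). Its level in them was 743, 294 and 500 CPM in infarction libraries with 14, 21 and 10 cells, and 1017 to 1732 in sham libraries. Over all cells it was 3.02, 3.55 and 2.05 in infarction and 83.1, 29.0 and 21.2 in sham libraries (-3.49 ± 0.61, adjusted p = 0.0028), in the order of the number of fibroblast-like cells in sham libraries (230, 175 and 85). Igfbp6 stood among the 10 leading genes of the fibroblast cluster. Schwann-like cells, the myelinating cells of peripheral nerve, had 560 and 40.9 CPM in sham 1 and sham 2, the libraries with at least 20 such cells. The 10 cells with the most Igfbp6 gave 77.1% of the 166 UMIs in the 93 sham Schwann-like cells. A few cells thus carry this level, and it differs widely between the libraries.

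Igfbp7 was by far the most abundant member, with 975611 UMIs in sham cells. Over all cells it was 13.9, 12.1 and 24.2 CPM in infarction and 6877, 5209 and 5732 in sham libraries (-8.02 ± 0.36, adjusted p = 1.77e-05). In sham libraries it was 9507 ± 599 in pericyte-like cells, 8821 ± 169 in smooth muscle-like cells, 7207 ± 1020 in fibroblast-like cells and 4698 ± 171 in endothelial-like cells; only pericytes and smooth muscle overlapped. Smooth muscle-like cells held 69.0% ± 6.69 of its sham UMIs. In infarction libraries endothelial-like cells held 67.2% ± 4.1 of what was left.

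Within endothelial-like cells Igfbp7 was 2360, 2714 and 3111 CPM in infarction and 4531, 4873 and 4689 in sham libraries. The groups did not overlap, and the level was lower in infarction (-0.67 ± 0.12, adjusted p = 0.00194). There were 9226 to 14352 Igfbp7 UMIs per 1000 Acta2 UMIs in sham endothelial-like cells, against 550 to 681 in sham smooth muscle-like cells of the same libraries, Acta2 being the smooth muscle actin gene. Without Plvap-positive cells the change was -0.56 (adjusted p = 0.00665). With plain totals, 164 endothelial genes were called higher and 382 lower, against 225 and 264 with TMM. In microglia-like cells Igfbp7 was 0.486, 4.34 and 1.74 in infarction and 141, 144 and 145 in sham libraries (-6.04 ± 0.55, adjusted p = 0.000479). There the sham ratio was 660, 728 and 568 Igfbp7 UMIs per 1000 Acta2 UMIs in sham 1, 2 and 3, near the 550, 681 and 584 of smooth muscle-like cells. The 10 smooth muscle markers summed to 4.37 to 5.97 in infarction and 1059 to 1313 in sham microglia-like cells, and their part in the Igfbp7 call was not tested.

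In T or NK-like cells Igfbp7 was the single member tested, at 0, 0 and 3.50 CPM in infarction and 129, 100 and 159 in sham libraries. It was called lower (-6.35 ± 0.49, adjusted p = 5.48e-09), against 3.17% of 4486 genes tested called lower, 5.22% higher and 8.38% in either direction, with 488 to 719 Igfbp7 UMIs per 1000 Acta2 UMIs in the sham cells. Igfbp7 had 2 infarction and 208 sham UMIs in this class, so it entered the fit through the sham libraries, which fixed its direction. The 10 smooth muscle markers summed to 3.04 to 9.04 in infarction and 892 to 1278 in sham T or NK-like cells. Their part in this call was not tested. In oligodendrocyte-like cells Igfbp7 was 10.0, 37.1 and 100 in infarction and 453, 106 and 254 in sham libraries, with infarction 3 close under sham 2 (-2.40 ± 0.67, adjusted p = 0.0337), and the call was lost without sham 1, sham 3, infarction 1 or infarction 2 (adjusted p = 0.0516 to 0.126). The 10 smooth muscle markers in these cells summed to 58.5 to 90.8 in infarction and 831 to 3683 in sham libraries, with 4 to 9 of them having a UMI in infarction and 10 in sham libraries, and their part in this call was not tested.

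Of 51 other genes of the IGF pathway listed for context, 49 were in the files. Over all cells 14 were called higher and 24 lower of 45 tested, against 33.2% higher and 38.1% lower (71.3% in either direction) of all genes, with a median log2 fold change of -0.39 against -0.13 for all genes. With plain library totals the counts were 12 higher and 29 lower. The translation inhibitor Eif4ebp1, a target of mTOR, averaged 157 ± 3.3 CPM in infarction and 49.2 ± 4.8 in sham libraries (2.14 ± 0.09, adjusted p = 1.57e-05), and it was also called higher in microglia- (1.44 ± 0.09), macrophage- (1.38 ± 0.10), oligodendrocyte- (3.03 ± 0.67) and endothelial-like cells (0.90 ± 0.23), with adjusted p = 4.22e-07, 3.22e-06, 0.0121 and 0.0221. In T or NK-like cells it was not called (-0.047, adjusted p = 0.946). The oligodendrocyte call was lost without sham 3 or without Pdgfra-positive cells, where 0 pathway genes were called higher. The endothelial call was lost without sham 2, also with 0 called higher. The microglia- and macrophage-like classes compared different clusters between groups. Adamts1, a protease of vessel walls, averaged 1.22 ± 0.02 in infarction and 92.7 ± 6.4 in sham libraries (-5.78 ± 0.11, adjusted p = 6.28e-06), and Mmp9, a neutrophil protease that can cut binding proteins, 13.2 ± 4.4 in infarction and 0.671 ± 0.015 in sham libraries (4.77 ± 0.31, adjusted p = 5.14e-05).

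In microglia-like cells, with the different clusters given above, 5 pathway genes were called higher and 14 lower of 34 tested, against 32% and 30.9% of all genes, so the total is near the 62.9% called in either direction. The insulin and IGF receptor adaptor Irs2 averaged 13.9 ± 0.3 CPM in infarction and 27.0 ± 1.9 in sham libraries (-0.96 ± 0.11, adjusted p = 2.22e-05), and Socs2, a brake on growth hormone signalling, 4.43 ± 1.11 in infarction and 17.4 ± 4.7 in sham libraries (-1.93 ± 0.23, adjusted p = 3.17e-05). In macrophage-like cells 11 were called higher and 11 lower of 36, against 29.1% and 26.9% of all genes. With plain totals 7 were called higher and 19 lower, and with 1 library left out 13 to 17 were called in all. Igf2r, the receptor that takes IGF2 into lysosomes, averaged 107 ± 8.3 in infarction and 23.2 ± 3.0 in sham libraries (2.71 ± 0.15, adjusted p = 7.06e-07), and the PI3K subunit gene Pik3cd 7.21 ± 1.84 in infarction and 73.4 ± 5.8 in sham libraries (-2.82 ± 0.20, adjusted p = 2.67e-06), again between different clusters. In endothelial-like cells 3 were called higher and 3 lower of 23, against 3.84% and 4.51% of all genes. Htra1, a secreted protease, averaged 48.3 ± 8.0 in infarction and 134 ± 17.3 in sham libraries (-1.31 ± 0.23, adjusted p = 0.00185), and Foxo1, a transcription factor that AKT keeps out of the nucleus, 20.8 ± 8.1 in infarction and 61.6 ± 11.9 in sham libraries (-1.33 ± 0.34, adjusted p = 0.0242). Foxo1 moved the other way in T or NK-like cells, where it averaged 91.3 ± 28.3 in infarction and 32.2 ± 6.5 in sham libraries (1.48 ± 0.28, adjusted p = 0.00129), 1 of 2 called there of 16 tested, both higher, against 5.22% of all genes called higher; the difference between the classes was not tested. In oligodendrocyte-like cells 1 was called higher (Eif4ebp1) and 1 lower (Pik3r1) of 21, against 12.3% and 9.27% of all genes.

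The genes most like each member were sought over 18 class and group units, by Pearson's r of log2(CPM + 5) among 9984 genes, with no p since units share libraries and depth; choroid plexus-like cells, with 17 cells in sham 3, were outside these units. Igfbp7 was closest to the basement membrane laminin Lamb2 (r = 0.97), the laminin receptor Bcam (0.97) and the caveolar gene Cavin1 (0.96). Igfbp6 was closest to Lum (0.97), Smoc2 (0.97) and Coch (0.96), and Igfbp4 to the proteoglycan gene Ogn (0.96), Prrx2 (0.95) and Nov (0.93). Igfbp3 was closest to Esm1 (0.88), Clic2 (0.80) and Cavin2 (0.80), and Igf1 to the protease gene Ctsk (0.85) and the chemerin receptor Cmklr1 (0.81). Igfbp5 was closest to Gulp1 (0.92), Slc2a13 (0.89) and Scara3 (0.88), Igfbp2 to Abhd14a (0.90), Calml4 (0.90) and Gsta1 (0.90), and Igf2 to Fxyd1 (0.87), Aldh3a2 (0.87) and Mtm1 (0.86). Igf1r reached 20 CPM in no unit and was not compared.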

How the data were processed

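Raw UMI counts per gene and cell were deposited by the authors for 6 libraries of the 10x 3′ v3.1 kit, per the labels; the submitters' processing notes name CASAVA 1.8, Cell Ranger 3.1.0 and Seurat 2.3.4. The genome build is not given in the sources used here. Barcodes with at least 500 UMIs, 200 genes and at most 20% mitochondrial UMIs were kept, and those with a Scrublet score above 0.25 removed (1.74% to 2.79% per library). Cells were clustered in scanpy 1.11.5 (2000 variable genes without the IGF genes, 30 components, 15 neighbours, Leiden resolution 1.0) and clusters named where at least 3 fixed markers were raised. Counts summed per library and class were tested in edgeR 4.0.16 with TMM and filterByExpr; DESeq2 1.42.0 was an alternative, as were other factors, filters, clusterings and left-out libraries. edgeR was tested on simulated data. Class shares used exact permutation tests. The 9 genes and all gene lists were chosen with earlier results of these data known. Named were all 9 genes, up to 4 pathway genes with the smallest p per fit, and 3 similar genes per member, 1 of which is not reported here. Subsets by a second gene, the Lyve1-led clusters, sham 3 alone and plain totals were alternatives added after seeing the data.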

Additional observations from a re-analysis of the deposited data

Results flagged for a closer look

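The infarction over sham change of Igf1 differed between microglia- and macrophage-like cells, by 1.90 on the log2 scale in the edgeR interaction test (0.21 in microglia-like and -1.67 in macrophage-like cells), with adjusted p = 0.000901 and the groups not overlapping in macrophage-like cells alone. The change of Igfbp3 differed between the same classes by 11.7 (2.49 and -9.28), with adjusted p = 4.4e-12. Its microglial part rested on 78 infarction cells, of which 75.6% held an Mrc1 UMI. Without Mrc1-positive cells Igfbp3 did not pass the filter in microglia-like cells. In the Lyve1-led clusters of the finer clustering the macrophage change of Igfbp3 was -0.95. Both classes were made of different clusters in infarction and sham libraries. With cells of at most 10% mitochondrial UMIs, the Igf1 difference was 1.70 (adjusted p = 0.0621). The Igfbp3 difference was 5.14 at that limit and 5.11 at Leiden resolution 1.5.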

How the results depend on the processing

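Of the single members' values, 581 kept direction and call under an alternative, 27 lost the call, 18 gained it and 30 changed sign. These counts cover only fits in which the member passed the filter. Calls lost because a member was no longer tested, such as microglial Igfbp3 without Mrc1-positive cells, are not among the 27. Over all cells the member count stayed at 9 under each left-out library. Leaving out 1 library gave 3 to 6 members called in microglia-, 6 to 7 in macrophage-, 1 to 2 in oligodendrocyte-, 1 to 3 in T or NK- and 2 to 3 in endothelial-like cells and 2 to 3 in the interaction; the other pathway genes numbered 34 to 38, 18 to 21, 13 to 17, 0 to 7, 1 to 2, 2 to 6 and 10 to 13, with all cells first. Same-numbered infarction and sham libraries correlated between -0.0608 and 0.112 over all cells. The 3 correlations were all positive in microglia- (0.030 to 0.086), macrophage- (0.018 to 0.056) and oligodendrocyte-like cells (0.10 to 0.231). These values do not settle whether the numbers pair the libraries. With the replicate number as a block, 9, 5, 7, 2, 1 and 2 members were called in all cells, microglia-, macrophage-, oligodendrocyte-, T or NK- and endothelial-like cells.

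In oligodendrocyte-like cells 1 member was called with no filter, with sham 3 alone, with the IGF genes in the clustering or with plain totals, and 0 without Pdgfra cells, against 2; pathway genes numbered 1 with DESeq2, 4 with no filter or at resolution 0.6 and 0 without Pdgfra cells, against 2. Macrophage pathway genes numbered 8 with sham 3 alone, 13 at 10% mitochondrial UMIs and 6 in Lyve1-led clusters, against 22. T or NK-like cells had 2 members called with no filter, against 1, and 0 pathway genes with sham 3 alone, against 2. Endothelial-like cells had 1 member without Plvap cells, against 2, and 3, 10 and 1 pathway genes with DESeq2, no filter and sham 3 alone, against 6. The interaction had 5 members with no filter or no doublet removal and 1 at 10% mitochondrial UMIs, against 2. Thinned to equal depth, Igf1r in infarction endothelial-like cells was 0, Igfbp2 in sham choroid plexus-like cells 8355 and Igfbp6 in infarction oligodendrocyte-like cells 10.3 CPM.

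These signs changed, and the cause was not tested. Igf1 was -0.46 over all cells without mural and choroid plexus cells and -0.21 in microglia-like cells with sham 3 alone. Igf1r was 0.064 in macrophage-like cells at 10% mitochondrial UMIs. In oligodendrocyte-like cells Igfbp2 was 0.24 with sham 3 alone, and Igfbp5 -0.70 without doublet removal, -0.026 at resolution 0.6 and -0.66 with the IGF genes. Endothelial Igf2 was 0.10 with DESeq2, 0.31 with the replicate block, 1.38 with sham 3 alone and 0.35 and 0.21 without infarction 2 and 3, and endothelial Igfbp3 3.78 with sham 3 alone and 2.19 without Plvap cells. In the interaction Igf1r was 0.050 with DESeq2, 0.17 with upper-quartile factors, 0.11 at resolution 0.6, 0.25 with the IGF genes, 0.43 without sham 2 and 0.050 without infarction 2. There Igf2 was -0.15 without infarction 3, Igfbp2 -0.068 at 10% mitochondrial UMIs, Igfbp4 -1.54 without doublet removal, -1.98 with the IGF genes and -1.56 without infarction 2, Igfbp5 -3.19 at 10% mitochondrial UMIs, -1.42 without doublet removal and -0.47 without sham 2, and Igfbp7 -0.070 at 10% mitochondrial UMIs and -1.74 without doublet removal. The fibroblast share of Igfbp6 differed by -1.04 percentage points at 10% mitochondrial UMIs. At 10% mitochondrial UMIs or with sham 3 alone, the all-cell Igf1 call was lost (0.14 and 0.54).

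Over left-out libraries, endothelial Igf2 went as low as -0.80, and the interaction reached 2.02 for Igf2, -0.48 for Igf1r, 2.25 for Igfbp4 and 3.25 for Igfbp5.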
